A study of Mus musculus with 4 samples.

Results

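Expression of 5 genes that carry intracellular signals or mark proliferation and survival was examined in mouse lung by RT-qPCR: *LCK*, *MKP1*, *SIRT1*, *MKI67* and *BCL2*. They were taken by name from a panel of 98 genes, and all 5 were measured in all 4 groups. The mice were female C57BL/6J, 6 to 8 weeks old. Their lungs had been injected with Matrigel holding either cells of LLC, a single mouse Lewis lung carcinoma line, or vehicle. On Days 3, 6 and 9 they inhaled 10 µg of recombinant S100A8, a calcium-binding protein of myeloid cells, or HBSS, the salt solution used as its control. Whole lungs were taken on Day 10. The groups without cancers were HBSS + vehicle and S100A8 + vehicle and those with cancers were HBSS + LLC and S100A8 + LLC, with 4 to 5 mice in each. LLC lungs contain implanted cancer cells as well as host tissue, so their RNA is a mixture of both.

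The 5 genes act at different points of the cell's response to signals. *LCK* encodes the Src family kinase that starts T cell receptor signalling, and in lung it is chiefly a gene of lymphocytes. *MKP1*, listed in mouse as Dusp1, encodes a phosphatase that switches off MAP kinases and is itself induced by stress and inflammatory signals. *SIRT1* encodes an NAD-dependent deacetylase that acts on histones and on transcription factors. *MKI67* encodes the Ki-67 protein of cycling cells, and *BCL2* a mitochondrial protein that blocks apoptosis.

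The measurement was the threshold cycle (Ct), the amplification cycle at which a transcript is detected, so that 1 cycle less stands for a doubling of template. One mean Ct was deposited for each gene and group, averaged over the mice. The values therefore carry no SD and allow no test, and whether a difference exceeds the spread between mice cannot be said from them. Mean Ct of the 5 genes lay between 20.8 and 25.2, and none of the 5 exceeded 30 cycles in any group, whereas 26 of the 98 panel genes did. The 5 genes are not ranked by level against each other because assays differ in efficiency.

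The 250 bases upstream of the transcription start are shown for *MKP1*, *SIRT1* and *BCL2*. These are the gene that was highest of the 5 against HBSS + vehicle in the groups given S100A8 and the pair whose ratio varied least. The sequences are from RefSeq, build GRCm38.p6, at chr17:26508473-26508722, chr10:63339036-63339285 and chr1:106714291-106714540, all on the minus strand and written in the direction of transcription. Capitals mark TGACG or its reverse complement CGTCA, the core of the cyclic AMP response element bound by CREB and ATF factors.
*MKP1*: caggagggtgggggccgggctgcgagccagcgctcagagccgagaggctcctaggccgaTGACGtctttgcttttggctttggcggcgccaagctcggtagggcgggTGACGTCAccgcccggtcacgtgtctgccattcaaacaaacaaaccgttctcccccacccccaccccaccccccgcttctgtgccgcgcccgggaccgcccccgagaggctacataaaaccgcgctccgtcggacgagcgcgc
*SIRT1*: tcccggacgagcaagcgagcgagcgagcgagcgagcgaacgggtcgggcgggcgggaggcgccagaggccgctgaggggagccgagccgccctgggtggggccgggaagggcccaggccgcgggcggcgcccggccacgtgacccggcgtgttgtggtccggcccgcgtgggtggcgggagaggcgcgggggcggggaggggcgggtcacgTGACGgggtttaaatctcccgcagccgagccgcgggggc
*BCL2*: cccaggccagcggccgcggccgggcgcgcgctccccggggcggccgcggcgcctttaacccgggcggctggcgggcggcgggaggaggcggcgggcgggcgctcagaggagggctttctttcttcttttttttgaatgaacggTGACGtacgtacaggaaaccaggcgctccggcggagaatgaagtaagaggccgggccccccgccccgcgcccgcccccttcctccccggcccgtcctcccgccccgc

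Counted from the start site, the *MKP1* window held the core at -191, and on both strands, at -143 and -140, within the complete element TGACGTCA. In the *SIRT1* window the core stood at -39, overlapping a CACGTG E-box at -43, and in the *BCL2* window at -107. Other E-boxes stood at -126 in *MKP1* and at -115 in *SIRT1*, and 6.02% of all windows held one. The *MKI67* window and both annotated *LCK* windows had no match to these letters. Of 32851 mouse windows of this length, 17.8% held the core and 1.55% the complete element on either strand. Another 3 motifs were searched on both strands. The GC box GGGCGG was found in 32.7% of all windows, the CCAAT box in 33.8% and the ETS core GGAAGT in 19.7%. *MKP1* held 3 GC boxes, *SIRT1* 6, *BCL2* 7, *MKI67* 2 and the downstream *LCK* window 1. The CCAAT box was found 3 times in *MKI67* and in none of the others, and the ETS core once in *MKI67* and in each *LCK* window. The matches describe the sequences only, and no binding was measured.

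Fold changes were computed relative to 2 housekeeping assays, which did not run in parallel. Without cancers, the first crossed the threshold at 14.09 cycles with HBSS and 16.17 with S100A8, and with LLC cancers at 15.35 and 15.82. The second did so at 22.50 and 23.30 without cancers and at 20.56 and 22.75 with them. Their mean is the reference below unless another is named. The choice between them moves every gene of a comparison by the same amount, so that it changes fold changes but not ranks. The disagreement between the assays was 3.20 cycles between HBSS + LLC and HBSS + vehicle, and 0.20 cycles between S100A8 + LLC and S100A8 + vehicle. Ranges given after fold changes run over 4 references: both assays, each alone, and the median Ct of the panel genes. These ranges are not replicate error.

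**Figure D1:**
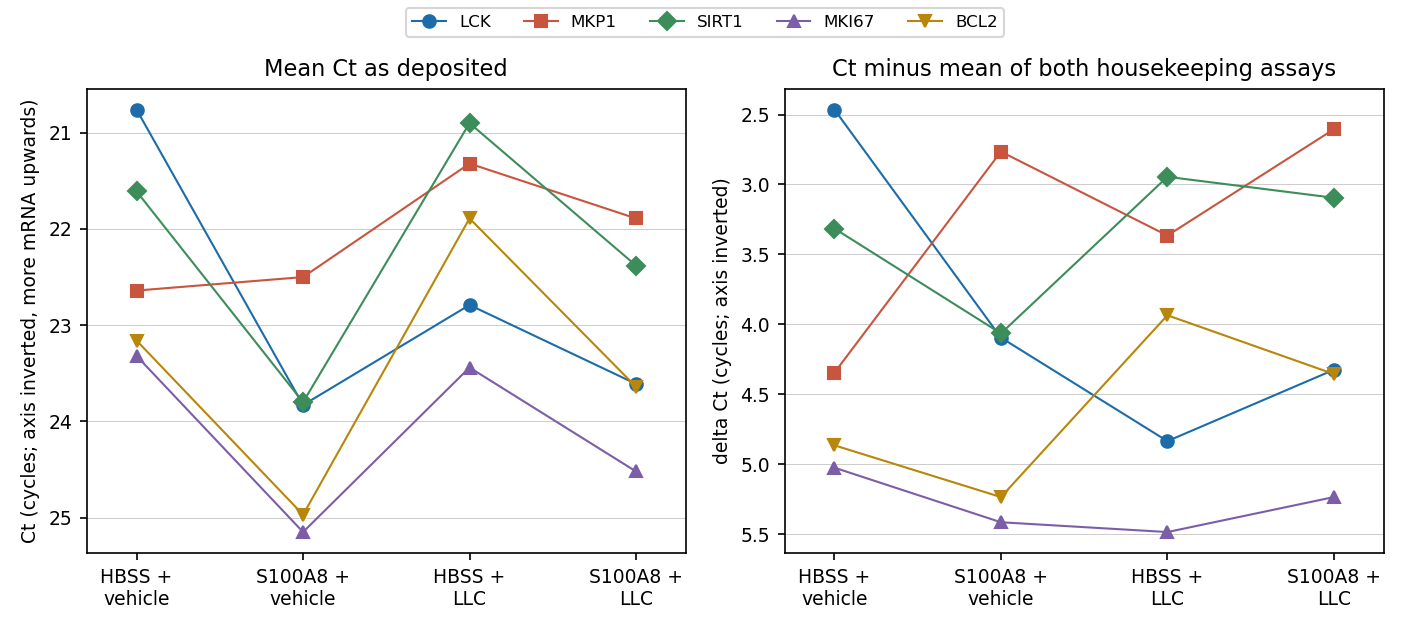
Mean Ct of the 5 genes in each group as deposited (left) and after subtraction of the mean of both housekeeping assays (right), in cycles on inverted axes, 1 point per gene and group; lines join the points of a gene and are not a time course. Before subtraction *LCK* was earliest in HBSS + vehicle at 20.76, and in S100A8 + vehicle all the genes but *MKP1* were at their latest.

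*LCK* mRNA was lower in all 3 treated or cancer-bearing groups than in HBSS + vehicle. In lungs without cancers its Ct was 20.76 with HBSS and 23.83 with S100A8. In lungs with LLC cancers it was 22.79 and 23.61. The group without S100A8 or cancers thus stood apart, earlier than the other groups by at least 2 cycles. Relative to the housekeeping assays, *LCK* was lower than in that group by 3.10-fold with S100A8 alone, 5.17-fold with LLC alone and 3.63-fold with both. On the log2 scale these differences were -1.63 (-2.27 to -0.99), -2.37 (-3.97 to -0.77) and -1.86 (-2.60 to -1.12). HBSS + vehicle held the highest *LCK* level under each of the 4 references, while the order of the other 3 groups changed with the reference. By fold change *LCK* ranked 12 from the lowest of 97 genes with S100A8 alone, 5 of 98 with LLC alone and 7 of 98 with both.

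Because *LCK* is a lymphocyte gene, the T cell genes of the panel are given beside it. In whole-lung RNA, fewer cells of a type and less RNA per cell cannot be told apart. Of the 6 genes of this list, which includes *LCK*, 2 lay above and 3 below the 2-fold limits with S100A8 alone, with a median log2 difference of -0.65 against 0.34 for the panel. With LLC alone 2 lay above and 2 below, and with both 3 above and 3 below, with medians of 0.72 and 0.38 against -0.19 and -0.22. *IL-13*, a type 2 cytokine, was lower with *LCK* in all 3 groups, by log2 differences of -2.20 (-2.84 to -1.56), -5.88 (-7.48 to -4.28) and -4.36 (-5.10 to -3.62), from a mean Ct of 27.09 in HBSS + vehicle. *IFN-γ*, the cytokine of type 1 T cells and NK cells, went the other way, at 2.34 (1.70 to 2.98), 4.99 (3.39 to 6.59) and 2.87 (2.13 to 3.61). *IL-4* was at the cut off of 38 cycles in HBSS + vehicle, and its differences of 2.20, 6.97 and 3.01 are lower bounds. *IL-5* was at -2.01 (-2.65 to -1.37), 0.57 (-1.03 to 2.17) and -1.16 (-1.90 to -0.42), and *IL-2*, with all Ct values above 35 cycles, at 0.33, 0.87 and 1.91. The first of these *IL-2* values is an upper bound, since S100A8 + vehicle was at the cut off. With Ct capped at 35 the differences became 1.44, -0.34 and 0.99 for *IL-2* and 1.44, 3.97 and 0.99 for *IL-4*. The capped *IL-2* values hold only the shift of the reference, since every Ct of this gene was then 35. The same holds for the capped *IL-4* values of 1.44 and 0.99, since its Ct was below 35 only in HBSS + LLC. The place of both genes among the 3 above with S100A8 and LLC together thus rests on Ct values above 35 cycles. The summed level of the 5 cytokines differed from HBSS + vehicle by -1.63, 0.66 and -1.17 on the log2 scale, with single Ct values from 25.05 up to the cut off. Such a sum gives most weight to the assays with the earliest Ct, here *IL-5* and *IL-13* in HBSS + vehicle, and does not rank the genes by level. The part of T cell number in the *LCK* values was not tested.

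*MKP1* mRNA took the opposite course. Without cancers its Ct was 22.64 with HBSS and 22.50 with S100A8, and with LLC cancers it was 21.32 and 21.89. It was the only gene of the 5 whose Ct was not later in the groups given S100A8 than in HBSS + vehicle. Relative to the housekeeping assays, *MKP1* exceeded HBSS + vehicle 2.99-fold with S100A8 alone and 3.34-fold with S100A8 and LLC. The log2 differences were 1.58 (0.94 to 2.22) and 1.74 (1.00 to 2.48), at ranks 19 of 97 and 17 of 98 from the highest. In HBSS + LLC it was 1.97-fold higher, just under 2-fold, at a log2 difference of 0.98. There the direction depended on the reference (-0.62 to 2.58).

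The ratio of *LCK* to *MKP1* needs no housekeeping gene. Compared with HBSS + vehicle, it was lower by 9.25-fold with S100A8 alone, 10.2-fold with LLC alone and 12.1-fold with both. The *LCK* to *MKP1* ratio thus separated HBSS + vehicle from the other groups, which lay within 0.39 cycles of each other, and had the widest range of all 10 pairs of the genes.

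*SIRT1* mRNA was detected at a Ct of 21.61 with HBSS and 23.80 with S100A8 in lungs without cancers, and at 20.90 and 22.38 in lungs with LLC cancers. For *BCL2* the Ct was 23.16 and 24.97 without cancers and 21.89 and 23.64 with them. Both were earliest in HBSS + LLC and latest in S100A8 + vehicle. Relative to the housekeeping assays and compared with HBSS + vehicle, *SIRT1* was 1.68-fold lower with S100A8 alone, 1.29-fold higher with LLC alone and 1.16-fold higher with both. For *BCL2* the values were 1.29-fold lower, 1.91-fold higher and 1.42-fold higher. Of these 6 differences, that of *SIRT1* in S100A8 + vehicle alone kept its direction under all 4 references, at -0.75 on the log2 scale (-1.39 to -0.11). *SIRT1* was lowest in S100A8 + vehicle under all 4 references, and *BCL2* under 3 of them.

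The Ct gap between *SIRT1* and *BCL2* varied by 0.56 cycles over the 4 groups, the least of the 10 pairs, so that their ratio stayed within 1.47-fold. *MKP1* departed from both. Relative to *BCL2* it exceeded HBSS + vehicle 3.86-fold with S100A8 alone, 1.04-fold with LLC alone and 2.35-fold with both. In lungs with LLC cancers, the ratio of *MKP1* to *BCL2* was 2.27-fold higher with S100A8 than with HBSS. The ratio of *LCK* to *BCL2* was lower than in HBSS + vehicle by 2.40-fold with S100A8 alone, 9.85-fold with LLC alone and 5.17-fold with both.

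**Figure D2:**
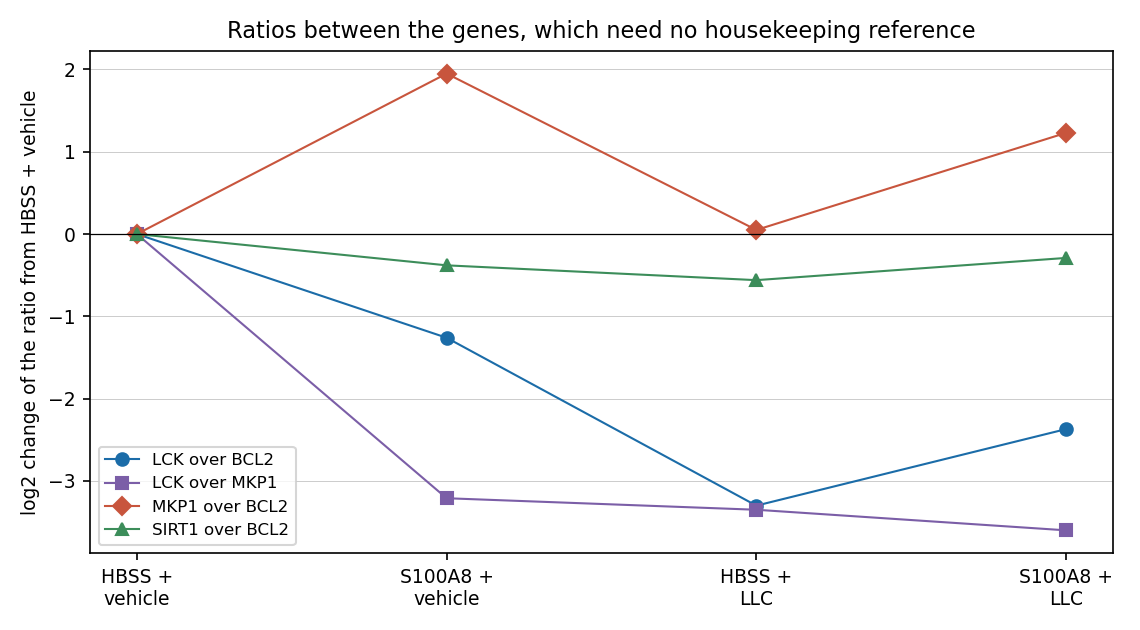
Log2 change from HBSS + vehicle of the ratio between 2 genes, computed from their Ct gap, in the 4 groups; 1 point per ratio and group, and lines only join the points. *LCK* over *MKP1* lies between -3.60 and -3.21 in the 3 other groups, whereas *SIRT1* over *BCL2* stays between -0.56 and 0.

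*MKI67*, the proliferation gene, differed least between groups with both housekeeping assays as reference. Without cancers its Ct was 23.32 with HBSS and 25.15 with S100A8, and with LLC cancers it was 23.44 and 24.52. The groups given S100A8 were later by more than 1 cycle than those given HBSS, with or without cancers. The housekeeping assays were later too, and after subtraction the groups lay within 0.46 cycles. *MKI67* lay below HBSS + vehicle by 1.31-fold with S100A8 alone, 1.38-fold with LLC alone and 1.16-fold with both. These log2 differences of -0.39 (-1.03 to 0.25), -0.46 (-2.06 to 1.14) and -0.21 (-0.95 to 0.53) had no fixed direction under the 4 references. In LLC lungs *MKI67* was lower relative to *BCL2*, by 2.62-fold with HBSS and 1.65-fold with S100A8, and in S100A8 + vehicle their ratio was within 1.01-fold of HBSS + vehicle.

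The number of the 5 genes past 2-fold was set beside the share of the whole panel with both housekeeping assays as reference. Under the other references the share of the 5 genes lay above that of the panel in some comparisons and below it in others. In S100A8 + vehicle over HBSS + vehicle 2 of 5 passed 2-fold, *LCK* and *MKP1*, where 45.4% of the 97 genes measured did. In HBSS + LLC over HBSS + vehicle *LCK* alone did, where 48.0% of the 98 panel genes did. In S100A8 + LLC over HBSS + vehicle *LCK* and *MKP1* did, where 40.8% of the panel did. The median log2 difference of the 5 genes was -0.39, 0.37 and 0.22 in these comparisons, beside 0.34, -0.19 and -0.22 for the panel. These comparisons share the HBSS + vehicle group.

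**Figure D3:**
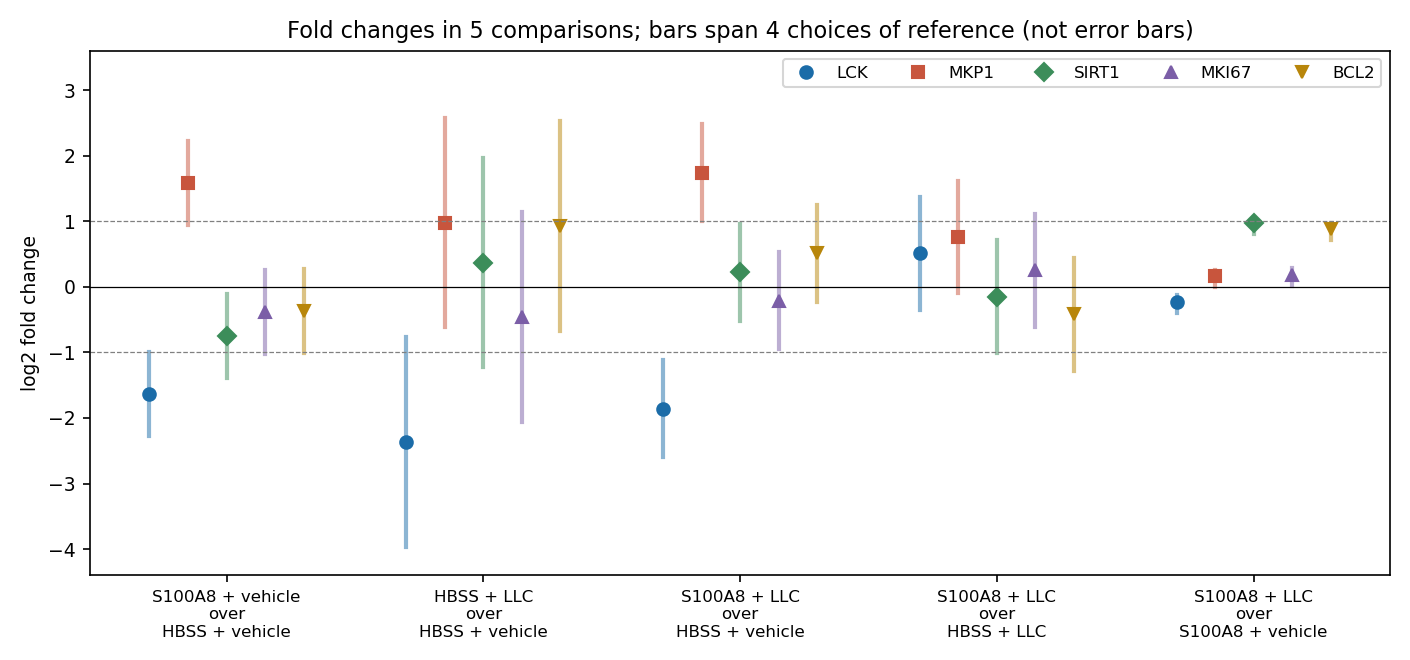
Log2 fold change of the 5 genes in 5 comparisons with the mean of both housekeeping assays as reference (symbols); bars span the values under 4 references and are not error bars, and dashed lines mark 2-fold. *LCK* stays below 0 under each reference in the 3 comparisons with HBSS + vehicle, and the bars are shortest for S100A8 + LLC over S100A8 + vehicle.

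The effect of S100A8 in lungs with LLC cancers was read from S100A8 + LLC over HBSS + LLC. None of the 5 genes passed 2-fold, where 26.5% of the 98 panel genes did. *MKP1* was 1.69-fold higher and *LCK* 1.42-fold higher, at ranks 15 and 20 from the highest, and *MKI67* was 1.19-fold higher. *SIRT1* was 1.11-fold lower and *BCL2* 1.34-fold lower. The log2 differences were 0.76 (-0.10 to 1.62) for *MKP1*, 0.51 (-0.35 to 1.37) for *LCK*, 0.25 (-0.61 to 1.11) for *MKI67*, -0.15 (-1.01 to 0.71) for *SIRT1* and -0.42 (-1.28 to 0.44) for *BCL2*. Each of the 5 turned with the reference, while the order from *MKP1* to *BCL2* does not depend on it.

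The effect of LLC cancers in lungs given S100A8 was read from S100A8 + LLC over S100A8 + vehicle, where the housekeeping assays moved almost together. None of the 5 genes passed 2-fold, where 41.8% of the 98 panel genes did. *SIRT1* came closest, at 1.96-fold higher with a log2 difference of 0.97 (0.80 to 1.07), followed by *BCL2* at 1.84-fold higher and 0.88 (0.71 to 0.98). They ranked 13 and 16 from the highest in a panel whose median was -0.44. *MKI67* was at 0.18 (0.01 to 0.28), *MKP1* at 0.16 (-0.01 to 0.26) and *LCK* at -0.23 (-0.40 to -0.13). This comparison leaves *LCK* and *MKP1*, the genes furthest from HBSS + vehicle in both groups, within 1.32-fold.

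**Figure D4:**
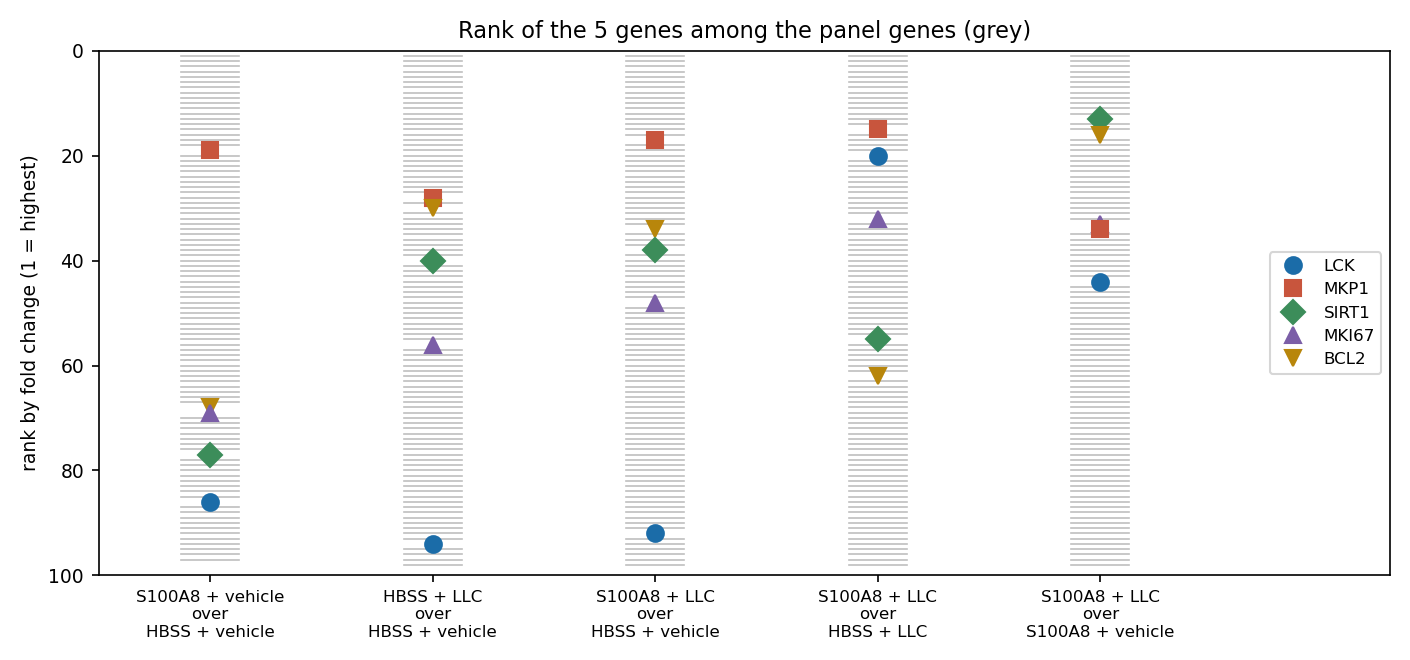
Rank by fold change of the 5 genes (symbols) among all panel genes with a fold change (grey lines, 97 genes in the first comparison and 98 in the others), where 1 is the highest. *LCK* lies at ranks 86, 94 and 92 in the comparisons with HBSS + vehicle, and *SIRT1* and *BCL2* at 13 and 16 in the last comparison.

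The S100A8 effect was set side by side in lungs without and with LLC cancers. For *LCK* the log2 difference was -1.63 without cancers and 0.51 with them, a difference between the effects of 2.14 (0.64 to 3.64) that was above 0 under each reference. For *MKP1* the effects were 1.58 and 0.76, for *SIRT1* -0.75 and -0.15, for *MKI67* -0.39 and 0.25, and for *BCL2* -0.37 and -0.42. The differences between the effects of these 4 genes lay between -0.82 and 0.64 and took both signs over the references. No test of these differences is possible with 1 value per group.

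Other panel genes were listed by role, and their counts past 2-fold moved with the reference. Of 6 growth factors and receptors, none passed in S100A8 + vehicle over HBSS + vehicle with both housekeeping assays as reference and 2 did under each other reference. In S100A8 + LLC over HBSS + vehicle none passed with both assays and 1 to 4 under the others. In HBSS + LLC *FGF-2* passed with both assays, at a log2 difference of 1.65 (0.05 to 3.25), and 2 to 5 of the 6 passed under the others. *KIT*, the stem cell factor receptor, passed in S100A8 + LLC over HBSS + LLC, at -1.24 (-2.10 to -0.38), where 2 or 3 genes passed under the other references. Over S100A8 + vehicle *KIT* was the one gene past 2-fold under all 4 references, at -1.47 (-1.64 to -1.37). The list's medians against HBSS + vehicle were 0.17, -0.56 and -0.46, beside 0.34, -0.19 and -0.22 for the panel. Over the 4 references, the share of the panel past 2-fold against HBSS + vehicle was 45.4% to 60.8% in S100A8 + vehicle and 48.0% to 77.6% in HBSS + LLC. In S100A8 + LLC it was 40.8% to 64.3% over HBSS + vehicle, 26.5% to 50.0% over HBSS + LLC and 39.8% to 45.9% over S100A8 + vehicle.

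Of 6 genes listed under stress and growth arrest, *CDKN1A*, which encodes the cell cycle inhibitor p21, was higher than in HBSS + vehicle in all 3 groups. Its log2 differences were 2.44 (1.80 to 3.08), 1.95 (0.35 to 3.55) and 1.55 (0.81 to 2.29), beside those of *MKI67* given above. *SOCS3*, an inhibitor of cytokine receptor signalling, was the other one past 2-fold against HBSS + vehicle with both assays as reference, at 1.21 in S100A8 + vehicle (0.57 to 1.85). *ANXA5* was lower in S100A8 + LLC than in HBSS + LLC, at -1.14 (-2.00 to -0.28), and than in S100A8 + vehicle, at -1.09 (-1.26 to -0.99). In the latter comparison *SOCS3* was at -1.43 (-1.60 to -1.33). Over the references, 1 to 4 of the 6 genes passed in S100A8 + vehicle, 1 to 5 in HBSS + LLC and 1 to 3 in S100A8 + LLC over HBSS + vehicle. The list's medians against HBSS + vehicle were 0.52, -0.27 and -0.28, beside 0.34, -0.19 and -0.22 for the panel. The panel shares past 2-fold in these comparisons are given above.

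Of 4 transcription factors that SIRT1 is known to deacetylate, none passed 2-fold in S100A8 + vehicle over HBSS + vehicle with both assays as reference, and 2 did with the first assay alone. *HIF-1α* was higher than in HBSS + vehicle in HBSS + LLC, at 3.54 (1.94 to 5.14), and in S100A8 + LLC, at 1.27 (0.53 to 2.01). In S100A8 + LLC it was lower than in HBSS + LLC, at -2.27 (-3.13 to -1.41), and higher than in S100A8 + vehicle, at 1.15 (0.98 to 1.25). Its Ct lay between 31.15 and 36.35, later than those of the 5 genes. With Ct capped at 35 its difference in S100A8 + vehicle over HBSS + vehicle became 1.44. This value holds only the shift of the reference, since both Ct values were then 35. The capped difference in S100A8 + LLC over S100A8 + vehicle was -0.20. *STAT3* was lower in S100A8 + LLC than in S100A8 + vehicle, at -1.43 (-1.60 to -1.33). The list's medians against HBSS + vehicle were 0.35, -0.55 and -0.59, beside 0.34, -0.19 and -0.22 for the panel.

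Marker genes of other lung cells moved between the same groups. Against HBSS + vehicle, the summed level of the 3 myeloid genes (*S100A8*, *S100A9* and *ARG1*) differed on the log2 scale by 1.12 with S100A8 alone, -0.15 with LLC alone and -0.03 with both. This sum follows *S100A8* and *S100A9*, while *ARG1*, with a Ct of 31.03 in HBSS + vehicle, was higher by 5.60, 4.98 and 4.77, and *S100A9* was at 1.06, -0.38 and -0.93. Of the 3 genes, 3, 1 and 1 were more than 2-fold higher, where 27 of 97, 26 of 98 and 22 of 98 panel genes were. In S100A8 + vehicle, *S100A8* ranged from 0.56 to 1.84 over the references and *S100A9* from 0.42 to 1.70, so that only *ARG1* passed under all 4. The summed level of the 3 epithelial genes (*CDH1*, *KRT5* and *KRT14*) differed by 4.90, 3.94 and 3.50. This sum follows *CDH1*, or E-cadherin, the assay with the earliest Ct of the 3, and *KRT5*, of basal cells, was lower at -3.10, -3.11 and -2.22. That of the 3 endothelial genes (*VCAM-1*, *CDH13* and *CAV1*) differed by -0.34, 1.40 and 0.53, but this sum follows *CAV1*, the earliest assay, which was at -0.36, 1.47 and 0.59. *VCAM-1* was at -0.58, 0.20 and -0.35 and *CDH13* at 0.27, -0.69 and -1.20, and the median of the 3 was -0.36, 0.20 and -0.35. The medians of the myeloid list were 1.20, 0.15 and 0.81, and those of the epithelial list 0.01, -1.68 and 2.61. The former are the values of *S100A8* and the latter those of *KRT14*, whose Ct lay between 27.79 and 30.84. None of these 9 genes was at the cut off. Their part in the values of the 5 genes was not tested.

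For each of the 5 genes, the panel genes with the nearest profile were found by the root mean square difference of the 3 log2 differences from HBSS + vehicle. For *LCK* they were *CCL-2* at 0.24, *CXCL-5* at 0.57 and *IL-23* at 0.80. For *MKP1* they were *HO-1* at 0.62, *CXCL-12* at 0.71 and *IL-2* at 0.73, the last with a bound as its value in S100A8 + vehicle. *SIRT1* and *BCL2* were in each other's lists, at 0.43, and no other pair of the 5 genes was. Nearest to *SIRT1* were *VCAM-1* at 0.36 and *MMP-3* at 0.37, and nearest to *BCL2* was *CAV1* at 0.32, with *COX-2* after *SIRT1* at 0.57. *COX-2* had log2 differences of -0.28, 1.36 and -0.37, while *PTGS2*, another panel entry of that gene, was at -1.75, 0.75 and -0.33. *MKI67* lay nearest to *SMAD4* at 0.20, *MMP-3* at 0.27 and *EGFR* at 0.30. With 3 values per gene that share a control and a reference, this likeness is a description.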

How the data were processed

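RNA of whole lungs was reverse-transcribed (1.5 µg) and amplified with SYBR Green on a panel of 98 genes and 2 housekeeping genes, with a cut off of 38 cycles. The authors averaged Ct over 4 to 5 mice and deposited 1 mean Ct per assay and group, not normalized. A second deposited table holds the authors' fold changes against the control in 3 columns, and was not used.

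Assays and columns are numbered, not named. They were identified by matching Ct differences between columns to the log2 of the fold changes that the study prints by gene, up to 1 constant per group. The differences between genes within a comparison therefore equal the printed ones by construction, and only the reference is independent. Of 24 ways to assign the 4 columns to groups, one gave all 98 genes exactly 1 row, each within 0.0095 on the log2 scale, and any other way gave at most 1 gene. The groups of the columns rest on this match. The 2 unmatched rows were read as the housekeeping genes β-actin and β2M, but which is which is not known.

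Log2 fold changes are the negative difference in Ct minus the mean Ct of both housekeeping assays. A gene was called past 2-fold either way, and pairs of groups that both stood at 38 cycles were left without a value. The genes named are the 5, the housekeeping assays, listed genes past 2-fold, and the 3 nearest profiles of each, with *PTGS2* given beside *COX-2*. One listed gene is not reported here. The 5 genes and the lists were chosen with earlier results of these data known. Alternatives were thresholds of 1.5-fold and 3-fold, 4 references in all, Ct capped at 35, and genes above 30 cycles left out. Scripts were tested on simulated data. Python 3.11.15, numpy 2.4.6 and matplotlib 3.10.9 were used.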

Additional observations from a re-analysis of the deposited data

Results flagged for a closer look

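For *LCK* and *MKI67*, an effect took opposite directions depending on the other factor. The S100A8 effect on *LCK* was -1.63 on the log2 scale in lungs without LLC cancers and 0.51 in lungs with them, a difference of 2.14. With the first housekeeping assay alone the effects were -0.99 and -0.35, in the same direction. The S100A8 effect on *MKI67* was -0.39 without and 0.25 with LLC cancers, a difference of 0.64. Against the panel median these effects were -0.83 and -0.24, in the same direction, and with the first housekeeping assay alone they were 0.25 and -0.61. The LLC effect on *MKI67* was -0.46 without S100A8 and 0.18 with it, the same difference of 0.64 by construction. With the first housekeeping assay alone the LLC effects were 1.14 and 0.28, in the same direction. These differences were not tested, since each group has 1 value per gene.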

How the results depend on the processing

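The number of the 5 genes past 2-fold depended on the reference. With the first housekeeping assay alone it was 1 in S100A8 + vehicle over HBSS + vehicle (2 in the main computation), 4 in HBSS + LLC over HBSS + vehicle (1), 3 in S100A8 + LLC over HBSS + vehicle (2), 2 in S100A8 + LLC over HBSS + LLC (0) and 1 in S100A8 + LLC over S100A8 + vehicle (0). With the second alone it was 4 in S100A8 + vehicle over HBSS + vehicle, 3 in HBSS + LLC over HBSS + vehicle, 3 in S100A8 + LLC over HBSS + LLC, and 1 in S100A8 + LLC over HBSS + vehicle, where *MKP1* was at exactly 2-fold. Against the panel median, and also at a threshold of 1.5-fold, it was 3 in S100A8 + vehicle over HBSS + vehicle. At a threshold of 3-fold it was 1 in S100A8 + vehicle over HBSS + vehicle. At 1.5-fold it was 3 in HBSS + LLC over HBSS + vehicle, 1 in S100A8 + LLC over HBSS + LLC and 2 in S100A8 + LLC over S100A8 + vehicle. The share of all panel genes past the limit moved too. It was 60.8%, 66.3%, 45.9%, 50.0% and 39.8% with the first assay alone and 47.4%, 77.6%, 64.3%, 45.9% and 45.9% with the second, in the order S100A8 + vehicle, HBSS + LLC and S100A8 + LLC over HBSS + vehicle, then S100A8 + LLC over HBSS + LLC and over S100A8 + vehicle. It was 63.9%, 74.5%, 69.4%, 48.0% and 68.4% at 1.5-fold, and 32.0% in S100A8 + vehicle over HBSS + vehicle at 3-fold and 45.4% against the panel median. In S100A8 + LLC over HBSS + vehicle at 3-fold, 2 of the 5 genes and 25.5% of the panel passed. Capping Ct at 35 or leaving out genes above 30 cycles changed none of the counts of the 5 genes. No difference of the 5 genes past 2-fold in the main computation turned its direction under these alternatives. Of the 25 fold changes of the 5 genes, 10 had one direction under all 4 references, 4 of them in S100A8 + LLC over S100A8 + vehicle and 0 in S100A8 + LLC over HBSS + LLC. No paired analysis was possible because each group has 1 averaged value, and for the same reason no replicate could be left out.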
